A study of Mus musculus with 9 samples.

Results

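The 10 genes described here encode FGF receptors (*Fgfr1*, *Fgfr2*, *Fgfr3*) and proteins that ERK signalling acts through or that restrain it, namely the feedback inhibitors *Spry1*, *Spry2*, *Spry4* and *Dusp6* and the ETS transcription factors *Etv1*, *Etv4* and *Etv5*. They were taken by symbol from the deposited expression table, and 10 of 10 were found among its 14670 genes. Secreted FGFs bind FGF receptors, receptor tyrosine kinases that pass the signal through adaptor proteins and RAS to the kinases RAF, MEK and ERK. ERK activity raises transcription of the Sprouty (*Spry*) genes, whose proteins restrain signalling between receptor and ERK, of *Dusp6*, whose product is a phosphatase that inactivates ERK, and of the *Etv* genes, whose products act in the nucleus. In the developing cortex FGF signalling acts on radial glia, the progenitors that line the ventricle, and on regional patterning.

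RNA from the cerebral cortex of mouse embryos at embryonic day (E) 16.5 was sequenced in 9 libraries, 3 from each of 3 genotypes. The controls are wild type (+/+) in the labels, whereas the methods allow littermates that were heterozygous as well as wild type. The mutants are Fzd3 -/- and Celsr3 -/-, which lack the Wnt receptor Frizzled3 or the cadherin Celsr3, on a mixed C57Bl/6 and CD1 background. The *Fzd3* mutant allele lacks exon 3. Libraries of controls and *Fzd3* mutants are numbered 1, 2 and 3, and those of *Celsr3* mutants 1, 2 and 4. For RNA extraction the labels name Trizol and the methods RNeasy. The question put to the data was how the levels of the 10 genes differ among the genotypes.

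The authors deposited CPM, read counts scaled per library, and the columns sum to between 990141 and 1012199 CPM. The highest sums exceed what scaling to the total reads of a library can give. The size used for scaling is not given here. A smallest step was estimated from the lowest values of each library and re-estimated in turn with higher values included. The values counted as low, 23 to 66 per library, were only part of those that set this step. In each library the values checked (100%, within 0.1 step) were whole multiples of it, and it was taken as 1 read. On that reading the libraries held between 39857305 and 69600589 reads on the listed genes, and 3 reads corresponded to between 0.0427 and 0.0752 CPM, which covers counting error only. Differences are log2 differences of CPM + 0.5 with a 95% interval or the standard error (SE), from limma fits to all 14670 genes in the 9 libraries. P values were adjusted over all of these genes, with a threshold of 0.05, and "rose", "fell", "higher" and "lower" in a count refer to genes past it. The P values reflect the spread between these libraries.

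The *Fzd3* mutant libraries stood apart from the other 6. Over all genes on the log2 scale, Pearson correlations ran from 0.994 to 0.997 among the *Fzd3* mutant libraries and from 0.9749 to 0.986 over the 18 pairs of an *Fzd3* mutant library with any other. The 15 pairs among control and *Celsr3* mutant libraries lay between 0.989 and 0.995. Genes are not independent replicates, and these correlations are a description. *Celsr3* RNA measured 196, 243 and 214 CPM in control and 122, 139 and 118 CPM in *Celsr3* mutant libraries, a log2 difference of -0.78 (SE 0.0910, limma adjusted P = 0.00180), lower in 3 of 3 libraries. With the replicate number as a block its adjusted P was 0.0698, and over the alternative fits it lay between 0.00136 and 0.0698. *Fzd3* RNA measured 58.0, 67.7 and 46.9 CPM in control and 46.5, 39.8 and 59.6 CPM in *Fzd3* mutant libraries, which overlap, and the table holds 1 value for the whole gene. The *Fzd3* difference was -0.24 (limma adjusted P = 0.240). Without *Fzd3* mutant library 3 it was -0.40 and passed the threshold (adjusted P = 0.0457), over a range of 0.0457 to 0.633. A few marker genes were set beside the tissue label, and markers of other cells, among them blood and meninges, are given further below. The purity of the dissection was not tested. The neuron gene *Dcx* was abundant at 1930 CPM and the deep layer gene *Sox5* was at 321 CPM over all libraries, whereas *Wnt2b*, the measured gene of the choroid plexus and hem list, was at 1.04 CPM, with no division by length.

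In *Fzd3* mutants the 3 receptors and 3 of the 4 feedback inhibitors passed the threshold, in opposite directions, and *Spry1*, the remaining inhibitor, did not pass it. Of the 10 genes, 3 were lower than in controls (*Fgfr1*, *Fgfr2*, *Fgfr3*) and 3 were higher (*Spry2*, *Spry4*, *Dusp6*), together 6 of 10, against 29.8% of all 14670 genes past the same threshold (14.8% lower and 15% higher). An unadjusted p under 0.05 was reached by 8 of the 10 and by 41.4% of all genes. The libraries of control and *Fzd3* mutant did not overlap for 7 of the 10, against 43.8% of all genes. The median absolute log2 difference was 0.32 for the 10 and 0.14 for all genes. In *Celsr3* mutants, limma called 0 of the 10 genes, against 0.307% of all genes (0.13% higher and 0.177% lower). At an unadjusted p under 0.05 it called 1 of the 10 (*Dusp6*), against 800 genes (5.45%) in the table, and the libraries did not overlap for 1 of the 10, against 10.4% of all genes. The median absolute log2 difference there was 0.15 for the 10 and 0.05 for all genes. Compared directly, the mutants differed in 5 of the 10 (29.6% of all genes), with *Spry2*, *Spry4* and *Etv1* higher (15.3% of all genes) and *Fgfr2* and *Fgfr3* lower (14.3%) in the *Fzd3* mutants. Between the mutants 6 of the 10 reached an unadjusted p under 0.05 (40.9% of all genes) and 6 did not overlap (44.9%). Both mutants were compared with the same 3 control libraries. In bulk cortex, fewer cells of a type and less RNA per cell cannot be told apart.

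**Figure D1:**
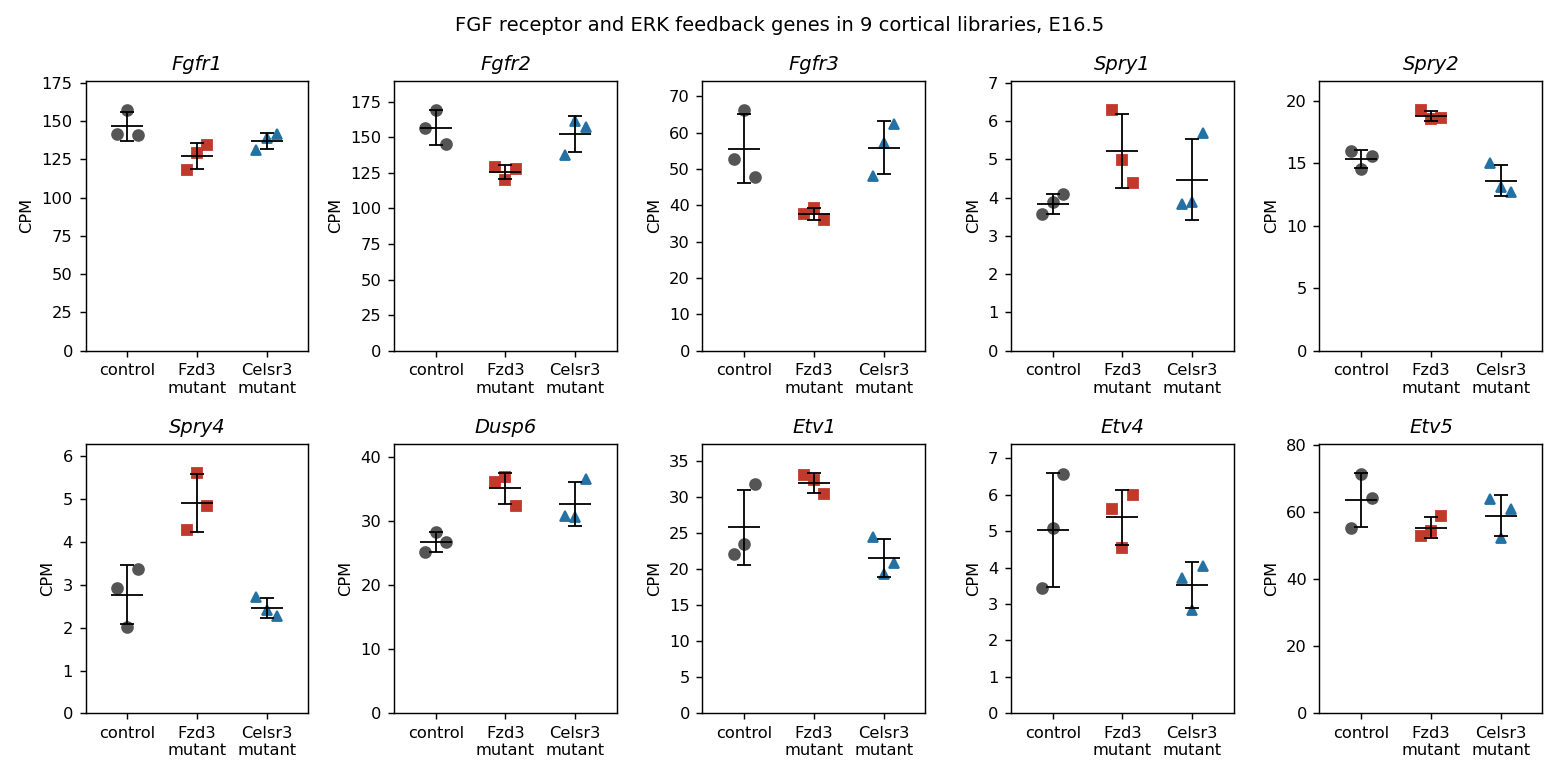
CPM of each of the 10 genes (vertical axis, from 0) in control, Fzd3 mutant and Celsr3 mutant libraries, with 1 point per library and the mean and SD (n = 3). Fgfr3 lies at 37.7, 39.2 and 35.9 CPM in the Fzd3 mutants, below the 6 other libraries, and Spry4 lies at 4.27, 5.62 and 4.83 CPM there, above the 6 others.

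Levels of the 10 genes are compared with each other per kb, as CPM divided by the length of all annotated exons (CPM per kb). In the lists further below, the most abundant gene is the gene with the highest CPM, not divided by length. In controls *Etv5* was at 15.5 ± 1.99 CPM per kb (SD, n = 3), *Fgfr2* at 15.2 ± 1.18 and *Fgfr1* at 14.8 ± 0.950, and the libraries of these neighbours in the order overlap. *Dusp6* followed at 8.53 ± 0.483 CPM per kb, *Fgfr3* at 7.77 ± 1.33 and *Spry2* at 7.35 ± 0.342, again with overlapping neighbours. The next group held *Etv1* at 1.94 ± 0.393 CPM per kb, *Etv4* at 1.62 ± 0.506 and *Spry1* at 1.32 ± 0.0907, which overlap in turn. *Spry4* was the lowest at 0.583 ± 0.144 CPM per kb, below every control value of *Spry1*. The order *Spry2*, *Spry1*, *Spry4* and the order *Etv5*, *Etv1*, *Etv4* were the same in all 3 genotypes with both exon lengths tried. The full order was not. With the longest coding transcript as the length, a scale chosen after seeing the data, the controls had *Fgfr2* at 36.4, *Fgfr1* at 29.1, *Etv5* at 16.0, *Fgfr3* at 13.1, *Dusp6* at 9.56, *Spry2* at 7.35, *Etv1* at 3.92, *Etv4* at 2.1, *Spry1* at 1.39 and *Spry4* at 0.583 CPM per kb of that transcript. Among these neighbours only *Etv5* with *Fgfr3* and *Etv4* with *Spry1* overlapped.

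In *Fzd3* mutants *Spry2*, at 9.004 ± 0.194 CPM per kb (SD, n = 3), stood above *Fgfr3*, at 5.25 ± 0.234, with no overlap by the length of all exons, and on that scale their libraries overlapped in controls and in *Celsr3* mutants (6.51 ± 0.597 CPM per kb for *Spry2* and 7.81 ± 1.03 for *Fgfr3*). *Etv5* at 13.5 ± 0.769, *Fgfr1* at 12.9 ± 0.855, *Fgfr2* at 12.2 ± 0.474 and *Dusp6* at 11.2 ± 0.782 CPM per kb overlapped in turn in the *Fzd3* mutants. *Dusp6* did not overlap there with *Spry2*, the next gene in the order. With the longest coding transcript as the length, *Spry2* and *Fgfr3* overlapped in the *Fzd3* mutants (9.004 and 8.86 CPM per kb of that transcript), and *Spry2* lay below *Fgfr3* without overlap in controls (7.35 and 13.1) and in *Celsr3* mutants (6.51 and 13.2), so which genotypes overlap depends on the length used. *Dusp6*, at 12.5 CPM per kb of that transcript, then lay below *Fgfr1* at 25.2 and *Fgfr2* at 29.1.

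**Figure D2:**
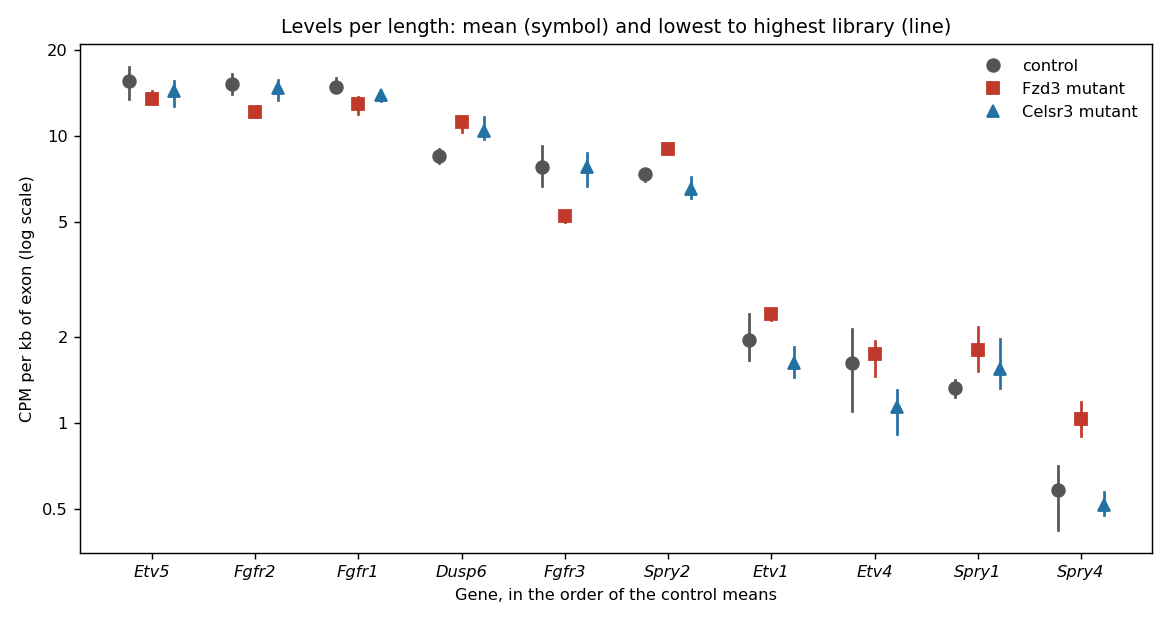
Levels of the 10 genes in CPM per kb of exon (vertical axis, log scale) in control, Fzd3 mutant and Celsr3 mutant libraries, in the order of the control means. In the Fzd3 mutants Spry2 (9.004) stands above Fgfr3 (5.25), and Spry4 is the lowest gene in each genotype (0.583 in controls).

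*Fgfr3* (XLOC_024392, chromosome 5, 33721724 to 33737068 in GRCm38.p6, the build of all positions here) encodes a receptor that radial glia express. Control libraries 1, 2 and 3 held 52.8, 66.2 and 47.8 CPM, *Fzd3* mutant libraries 1, 2 and 3 held 37.7, 39.2 and 35.9 CPM, and *Celsr3* mutant libraries 1, 2 and 4 held 48.0, 57.2 and 62.5 CPM. All 3 *Fzd3* mutant libraries lay below all 6 others, while control and *Celsr3* mutant libraries overlapped. The log2 difference between *Fzd3* mutants and controls was -0.55 (95% interval -0.80 to -0.29), a fold of 0.685, with a limma adjusted P of 0.00505, lower in 3 of 3 mutant libraries. Among all genes, 10.1% had a larger absolute difference. This call held in each alternative fit, with log2 differences between -0.65 and -0.41 and adjusted P values between 0.00144 and 0.0203. Between *Celsr3* mutants and controls the difference was 0.01 (95% interval -0.24 to 0.27).

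*Fgfr2* (XLOC_031116, chromosome 7, 130162451 to 130266808) encodes a receptor of the same family. For *Fgfr2*, controls had 156, 169 and 145 CPM, *Fzd3* mutants had 129, 120 and 128 CPM, and *Celsr3* mutants had 138, 162 and 157 CPM. The *Fzd3* mutant libraries were again the 3 lowest of the 9. *Fgfr2* fell by 0.32 on the log2 scale in *Fzd3* mutants (95% interval -0.47 to -0.17, limma adjusted P = 0.00572), in 3 of 3 libraries, and adjusted P values lay between 0.00276 and 0.0277 over the alternative fits. *Fgfr1* (XLOC_031469, chromosome 8, 25518759 to 25575718) encodes a further receptor of this family. Values of *Fgfr1* were 142, 157 and 141 CPM (control), 118, 129 and 135 CPM (*Fzd3* mutant) and 131, 139 and 142 CPM (*Celsr3* mutant). The *Celsr3* mutant libraries of *Fgfr1* overlapped with those of both other genotypes. *Fgfr1* fell by 0.20 in *Fzd3* mutants (95% interval -0.34 to -0.07, limma adjusted P = 0.0251), in 3 of 3 libraries. That call was lost without control library 2 (adjusted P = 0.0966), without *Fzd3* mutant library 1 (0.104), without *Fzd3* mutant library 2 (0.0542) and with limma's eBayes without the trend (0.0616), over a range of 0.0152 to 0.104. In *Celsr3* mutants the differences were -0.09 for *Fgfr1* (95% interval -0.23 to 0.04) and -0.04 for *Fgfr2* (-0.20 to 0.11).

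The promoters of *Fgfr2* and *Fgfr3* are shown because both genes were lower in the *Fzd3* mutants and differed between the mutants. The table of RefSeq promoters used here (GRCm38.p6) holds a window from 250 bases before to 50 bases after an annotated start for 7 of the 10 genes, and has no entry for *Fgfr1*, *Spry4* and *Etv4*. Capitals mark GGAA, the core letters that ETS factors bind, or its reverse complement TTCC. The *Fgfr2* window is chr7:130266759-130267058 on the minus strand. The *Fgfr3* windows are chr5:33721474-33721773 and chr5:33722056-33722355 on the plus strand, for 2 annotated starts.
Fgfr2: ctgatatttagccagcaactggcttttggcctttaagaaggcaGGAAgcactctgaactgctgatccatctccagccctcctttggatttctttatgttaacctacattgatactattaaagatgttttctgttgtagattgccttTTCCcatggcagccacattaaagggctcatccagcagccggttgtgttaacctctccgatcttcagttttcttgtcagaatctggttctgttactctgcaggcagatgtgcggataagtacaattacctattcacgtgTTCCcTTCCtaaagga
Fgfr3 window 1: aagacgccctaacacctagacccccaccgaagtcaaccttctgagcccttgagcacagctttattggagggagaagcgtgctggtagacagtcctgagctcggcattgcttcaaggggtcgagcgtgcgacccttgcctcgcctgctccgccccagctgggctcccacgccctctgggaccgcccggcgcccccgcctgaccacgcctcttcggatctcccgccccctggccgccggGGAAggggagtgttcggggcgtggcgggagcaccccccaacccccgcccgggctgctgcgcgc
Fgfr3 window 2: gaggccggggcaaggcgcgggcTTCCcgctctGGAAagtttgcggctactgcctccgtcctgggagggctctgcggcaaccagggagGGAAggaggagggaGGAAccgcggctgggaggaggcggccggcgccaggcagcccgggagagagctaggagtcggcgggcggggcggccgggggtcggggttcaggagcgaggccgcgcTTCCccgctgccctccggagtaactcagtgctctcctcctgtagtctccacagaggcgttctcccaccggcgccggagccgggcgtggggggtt
The *Fgfr2* window holds 4 matches, the *Fgfr3* windows hold 1 and 5, and the median over all 32851 promoters is 3. GGAA or TTCC occurs in 95.98% of all promoters. The longer motifs GGAAGT (reverse complement ACTTCC), in 23.77% of all promoters, and CCGGAA (reverse complement TTCCGG), in 14.9%, both contain GGAA, and neither is in these 3 windows. GC content is 43.7% in the *Fgfr2* window and 69.7% and 73.0% in the *Fgfr3* windows, against a median of 52.7% over all promoters. A match is a description of the letters only.

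*Spry4* (XLOC_015084, chromosome 18, 38586247 to 38601347), a Sprouty inhibitor, had the largest difference of the 10 genes in *Fzd3* mutants. For *Spry4*, controls had 2.93, 2.02 and 3.36 CPM, *Fzd3* mutants had 4.27, 5.62 and 4.83 CPM, and *Celsr3* mutants had 2.72, 2.41 and 2.26 CPM. The *Fzd3* mutant libraries were the 3 highest of the 9, and the others overlapped. *Spry4* rose by 0.74 on the log2 scale (95% interval 0.37 to 1.11), a fold of 1.67, with a limma adjusted P of 0.00701, in 3 of 3 libraries, and 5.22% of all genes had a larger absolute difference. Over the alternative fits the log2 difference ran from 0.54 to 0.87 and the adjusted P from 0.00431 to 0.0341. Over the 9 libraries its SD of 0.45 on the log2 scale was the largest of the 10 genes, and 5.44% of all genes had a larger SD.

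*Spry2* (XLOC_010629, chromosome 14, 105891947 to 105896819) encodes another Sprouty inhibitor. Values of *Spry2* were 15.9, 14.6 and 15.6 CPM (control), 19.2, 18.5 and 18.6 CPM (*Fzd3* mutant) and 15.0, 13.1 and 12.7 CPM (*Celsr3* mutant). The *Fzd3* mutant libraries lay above all others, and 2 of the 3 *Celsr3* mutant libraries lay below the controls. *Spry2* rose by 0.28 on the log2 scale in *Fzd3* mutants (95% interval 0.11 to 0.46, limma adjusted P = 0.0185), in 3 of 3 libraries. The call was lost without control library 2 (adjusted P = 0.0702) and without *Fzd3* mutant library 1 (0.0644), and the adjusted P ran from 0.0112 to 0.0702. In *Celsr3* mutants the difference was -0.17 (95% interval -0.34 to 0.00, limma adjusted P = 0.918), with an adjusted P of 0.601 or more in each alternative fit. The comparison between the mutants gave 0.46 (95% interval 0.28 to 0.63, adjusted P = 0.00171), higher in 3 of 3 *Fzd3* mutant libraries, and this call held in each alternative fit, with adjusted P values from 0.00110 to 0.0213.

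*Dusp6* (XLOC_002533, chromosome 10, 99263231 to 99267489) encodes the ERK phosphatase. Control libraries 1, 2 and 3 held 25.2, 28.2 and 26.7 CPM, *Fzd3* mutant libraries 1, 2 and 3 held 36.0, 36.9 and 32.3 CPM, and *Celsr3* mutant libraries 1, 2 and 4 held 30.8, 30.5 and 36.5 CPM. All 6 mutant libraries lay above all 3 controls, and the libraries of the mutants overlapped. *Dusp6* rose by 0.38 on the log2 scale in *Fzd3* mutants (95% interval 0.20 to 0.56), a fold of 1.30, with a limma adjusted P of 0.00513, in 3 of 3 libraries, and the adjusted P stayed between 0.00243 and 0.0254 over the alternative fits. In *Celsr3* mutants the log2 difference was 0.28 (95% interval 0.10 to 0.46), a fold of 1.21, above the controls in 3 of 3 libraries, and it did not pass the threshold after adjustment over all genes (limma adjusted P = 0.508, between 0.421 and 0.999 over the alternative fits). The difference between the mutants was 0.11 (95% interval -0.07 to 0.28, adjusted P = 0.364, between 0.107 and 0.679 over the alternative fits). *Spry1* (XLOC_019885, chromosome 3, 37639947 to 37644599) encodes the remaining Sprouty inhibitor. For *Spry1*, controls had 3.56, 3.88 and 4.09 CPM, *Fzd3* mutants had 6.29, 4.99 and 4.39 CPM, and *Celsr3* mutants had 3.84, 3.88 and 5.70 CPM. The *Fzd3* mutant libraries of *Spry1* lay above the controls, and *Celsr3* mutant library 4 reached into their range. The *Spry1* difference of 0.39 in *Fzd3* mutants (95% interval 0.03 to 0.75, limma adjusted P = 0.0977) did not pass the threshold, and its adjusted P ran from 0.0534 to 0.318 over the alternative fits. In *Celsr3* mutants it was 0.18 (95% interval -0.18 to 0.54), and it ran from -0.03 to 0.26 over the alternative fits.

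The promoters of *Spry2* and *Dusp6* are shown because both feedback genes were higher in the *Fzd3* mutants. The *Spry2* window is chr14:105896770-105897069 on the minus strand and the *Dusp6* window is chr10:99262981-99263280 on the plus strand, with capitals as for the receptors.
Spry2: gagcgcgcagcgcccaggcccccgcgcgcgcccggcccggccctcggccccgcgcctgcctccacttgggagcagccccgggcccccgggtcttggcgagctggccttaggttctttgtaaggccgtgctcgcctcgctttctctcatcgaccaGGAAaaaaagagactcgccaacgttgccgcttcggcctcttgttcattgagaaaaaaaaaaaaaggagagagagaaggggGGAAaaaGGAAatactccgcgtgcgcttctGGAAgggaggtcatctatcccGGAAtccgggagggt
Dusp6: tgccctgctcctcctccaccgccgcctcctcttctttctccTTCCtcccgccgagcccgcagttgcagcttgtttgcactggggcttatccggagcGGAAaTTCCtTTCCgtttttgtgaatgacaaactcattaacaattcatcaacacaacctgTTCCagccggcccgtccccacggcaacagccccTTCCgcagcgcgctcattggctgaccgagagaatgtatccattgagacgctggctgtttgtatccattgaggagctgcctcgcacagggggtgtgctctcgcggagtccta
The *Spry2* window holds 5 matches of GGAA or TTCC, among them 1 within CCGGAA or its reverse complement, and the *Dusp6* window holds 6, with neither longer motif. Of the other members with an entry, *Spry1* has 1 match, the *Etv1* windows have 5 and 1, and the *Etv5* windows have 6 and 0. GGAAGT or its reverse complement occurs 1 time in an *Etv1* window and 2 times in an *Etv5* window. GC content is 62.7% in the *Spry2* window and 57.3% in the *Dusp6* window.

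The *Etv* genes encode ETS factors of the PEA3 group, and *Etv1* is also known as a marker of layer 5 projection neurons. *Etv1* is listed as XLOC_006464 (chromosome 12, 38780082 to 38870483). Values of *Etv1* were 22.1, 23.5 and 31.8 CPM (control), 33.1, 32.4 and 30.4 CPM (*Fzd3* mutant) and 24.4, 19.2 and 20.8 CPM (*Celsr3* mutant). Control library 3 lay within the range of the *Fzd3* mutants, and controls 1 and 2 within that of the *Celsr3* mutants. The mutants themselves did not overlap and differed by 0.57 on the log2 scale (95% interval 0.29 to 0.84, limma adjusted P = 0.00635), higher in 3 of 3 *Fzd3* mutant libraries. That call was lost with replicate number as a block (adjusted P = 0.0639), over a range of 0.00104 to 0.0639. Against controls the differences were 0.32 in *Fzd3* mutants (limma adjusted P = 0.0750) and -0.25 in *Celsr3* mutants (adjusted P = 0.947, at least 0.750 over the alternative fits, with differences from -0.35 to -0.09). Without control library 3 the *Fzd3* mutant difference was 0.48 and passed the threshold (adjusted P = 0.00472), and its adjusted P reached 0.247 in other alternative fits.

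*Etv4* is listed as XLOC_006033 (chromosome 11, 101769747 to 101785310). For *Etv4*, controls had 3.43, 5.09 and 6.57 CPM, *Fzd3* mutants had 5.60, 4.54 and 5.99 CPM, and *Celsr3* mutants had 3.71, 2.83 and 4.04 CPM. The controls spread over the range of the *Fzd3* mutants, and all 3 *Celsr3* mutant libraries lay below all 3 *Fzd3* mutant libraries. The mutants differed by 0.55 (95% interval 0.10 to 1.00), which did not pass the threshold (limma adjusted P = 0.0627), but passed it without control library 1 (0.0285), without control library 3 (0.0350) and with only the libraries of the mutants in the fit (0.0261), over a range of 0.0261 to 0.202. Against controls the *Etv4* differences were 0.12 in *Fzd3* mutants (95% interval -0.33 to 0.57), with the opposite sign without control library 1 (-0.11), and -0.43 in *Celsr3* mutants (-0.88 to 0.02). The latter did not pass the threshold (adjusted P = 0.936, at least 0.534 over the alternative fits), and it ran from -0.66 to -0.23 over these fits. *Etv5* is listed as XLOC_012518 (chromosome 16, 22381313 to 22439570). Values of *Etv5* were 55.0, 71.3 and 64.2 CPM (control), 52.8, 54.3 and 58.9 CPM (*Fzd3* mutant) and 63.7, 52.1 and 61.0 CPM (*Celsr3* mutant). The libraries of the 3 genotypes overlapped. The *Etv5* difference in *Fzd3* mutants was -0.19 (95% interval -0.40 to 0.02, limma adjusted P = 0.156). Without control library 1 it was -0.29 and passed the threshold (adjusted P = 0.0415), and its adjusted P reached 0.469 in other alternative fits. In *Celsr3* mutants it was -0.11 (95% interval -0.32 to 0.11).

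**Figure D3:**
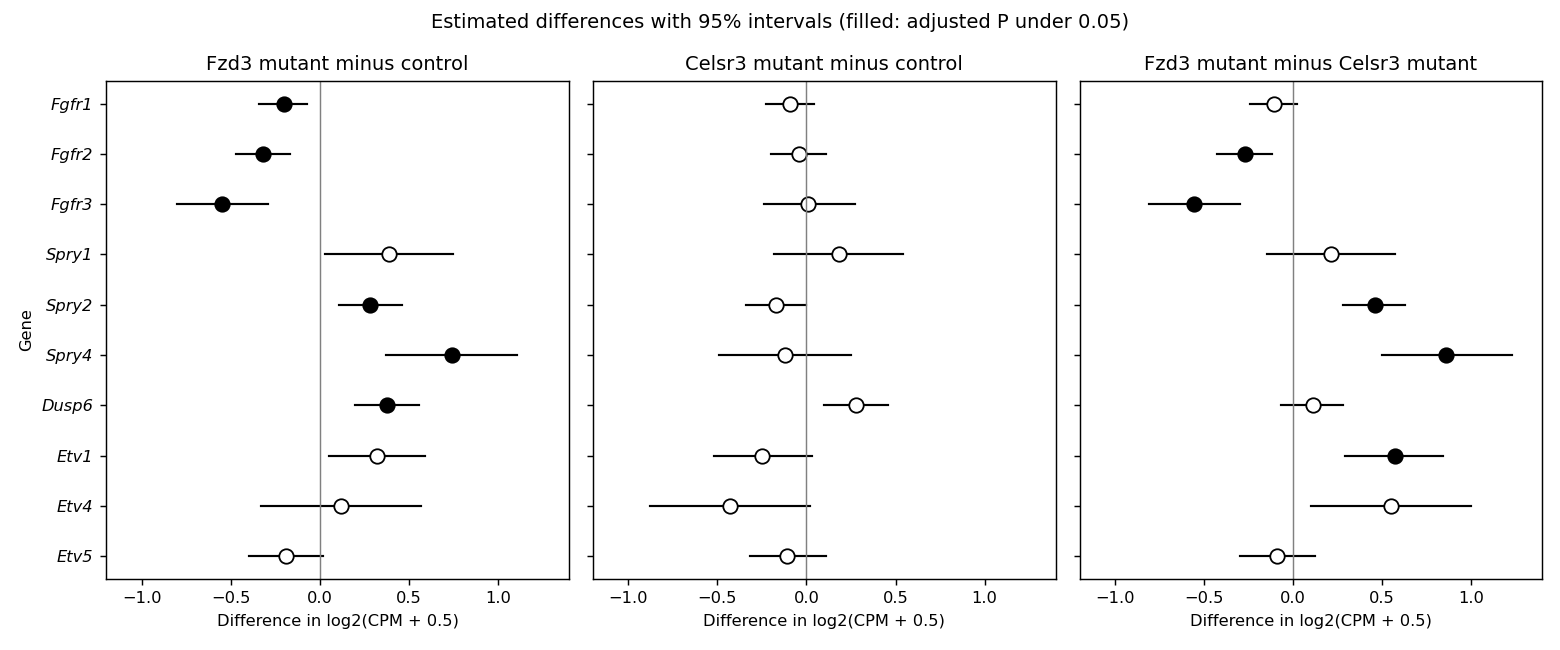
Log2 differences (horizontal axis, log2 of CPM + 0.5) of the 10 genes in the 3 comparisons, with 95% intervals. Points past the limma threshold number 6 for Fzd3 mutants against controls, 0 for Celsr3 mutants against controls (1 at an unadjusted p under 0.05) and 5 between the mutants.

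The comparison of the mutants with each other asks whether the difference of a gene in 1 mutant was unlike that in the other. *Fgfr3* differed by -0.56 (95% interval -0.81 to -0.30, limma adjusted P = 0.00468), lower in 3 of 3 *Fzd3* mutant libraries, and this held in each alternative fit, with adjusted P values up to 0.0209. *Spry4* differed by 0.86 (limma adjusted P = 0.00330), higher in 3 of 3 libraries. It held in each alternative fit that included it, with adjusted P values up to 0.0476. *Fgfr2* differed by -0.27 (95% interval -0.43 to -0.12, limma adjusted P = 0.0120), lower in 3 of 3. The *Fgfr2* call was lost without *Fzd3* mutant library 2 (0.0513), without *Celsr3* mutant library 2 (0.0526) and with a block for replicate number (0.108), over a range of 0.00383 to 0.108. The remaining differences were -0.11 for *Fgfr1* (95% interval -0.24 to 0.02), 0.21 for *Spry1* (-0.15 to 0.57) and -0.09 for *Etv5* (-0.30 to 0.12). Over the alternative fits *Fgfr1* ran from -0.15 to -0.06, *Spry1* from 0.08 to 0.41 and *Etv5* from -0.17 to -0.03, none past the threshold. A P value that misses the threshold does not show that values were alike.

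The receptors and the inhibitors, *Spry1* included, were also summed per library, a description chosen after the values were seen and not tested. The 3 receptor genes together had 36.9, 41.6 and 35.0 CPM per kb for control, 29.7, 30.1 and 31.0 for *Fzd3* mutant and 33.3, 37.7 and 38.3 for *Celsr3* mutant libraries. *Spry1*, *Spry2*, *Spry4* and *Dusp6* together had 17.5, 17.7 and 18.1 CPM per kb for control, 23.8, 23.5 and 21.8 for *Fzd3* mutant and 18.9, 17.9 and 20.2 for *Celsr3* mutant libraries. The *Fzd3* mutant libraries had the 3 lowest receptor sums and the 3 highest inhibitor sums of the 9. The ratio of inhibitors to receptors was 0.473 ± 0.0456 (SD, n = 3) for control, 0.761 ± 0.0526 for *Fzd3* mutant and 0.523 ± 0.0472 for *Celsr3* mutant libraries, and the *Fzd3* mutants did not overlap with the others. With the longest coding transcript as the length the ratio ran from 0.356 to 0.406 in the *Fzd3* mutants and from 0.219 to 0.291 in the other 6 libraries. The *Etv* genes together had 19.0 ± 2.50 CPM per kb (SD, n = 3) for control, 17.6 ± 0.817 for *Fzd3* mutant and 17.1 ± 1.83 for *Celsr3* mutant libraries, which overlap.

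**Figure D4:**
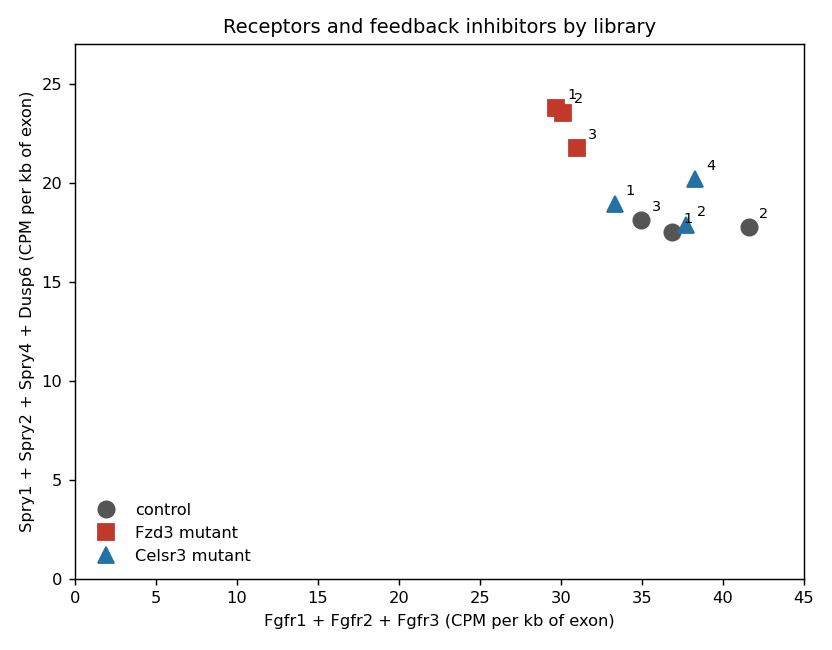
Summed levels of the receptor genes (horizontal axis) and of Spry1, Spry2, Spry4 and Dusp6 (vertical axis) in CPM per kb of exon, with 1 point per library. The 3 Fzd3 mutant libraries lie at receptor sums of 29.7, 30.1 and 31.0 and inhibitor sums of 23.8, 23.5 and 21.8, apart from the 6 others.

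Other genes of the pathway were taken from lists by role, and the median over all genes was a log2 difference of 0.00 in each comparison. Each list median below is followed in parentheses by its range over the fits with 1 library left out. In *Fzd3* mutants limma called 24 of the 73 measured genes of these lists (32.9%), against 29.8% of all genes (15% higher and 14.8% lower). At an unadjusted p under 0.05 it called 38 (52.1%), against 41.4% of all genes. Of 18 secreted FGF ligands, 4 were in the table, with *Fgf2* the most abundant at 6.67 CPM over all libraries, and summed levels of 11.8, 11.2 and 11.7 CPM for control, 13.9, 13.3 and 12.1 for *Fzd3* mutant and 12.4, 12.6 and 12.02 for *Celsr3* mutant libraries. In *Fzd3* mutants 1 of the 4 was higher, *Fgf9*, 0 were lower, and the median difference was 0.16 (0.08 to 0.24). Values of *Fgf9* were 1.14, 1.41 and 1.46 CPM (control), 3.48, 2.63 and 2.37 CPM (*Fzd3* mutant) and 1.60, 1.54 and 0.797 CPM (*Celsr3* mutant). All 3 *Fzd3* mutant libraries lay above the 6 others. *Fgf9* rose by 0.85 on the log2 scale in *Fzd3* mutants (SE 0.205, limma adjusted P = 0.0101, up to 0.0493 over the alternative fits), in 3 of 3 libraries. Its log2 difference lay between 0.53 and 1.02 over these fits. Without control library 3, 1 of the ligands was also lower. Of the 4 intracellular FGF homologous factors, which are not secreted and bind sodium channels, 2 were higher and 0 lower, *Fgf12* by 0.63 and *Fgf14* by 0.58. Their list median was 0.40 (0.31 to 0.47), *Fgf13* was the most abundant at 97.2 CPM, and the sums were 148, 132 and 162 CPM for control, 189, 188 and 156 for *Fzd3* mutant and 143, 135 and 131 for *Celsr3* mutant libraries. Without control library 3 or without *Fzd3* mutant library 3, 3 of the 4 were higher.

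Among other receptors and co-receptors 17 of 19 genes were measured, with *Ncam1*, an adhesion molecule, the most abundant at 441 CPM. In *Fzd3* mutants 4 were higher, 3 lower and 10 not past the threshold, where 29.8% of all genes passed it, with a list median of -0.09 (-0.10 to -0.04). The 3 lower genes were *Gpc4*, a heparan sulfate proteoglycan of the cell surface, at -0.67 (limma adjusted P = 0.00181, up to 0.00970 over the alternative fits), *Fgfrl1*, a receptor-like protein without a kinase domain, at -0.42 (0.0125, up to 0.0477), and *Flrt3*, a membrane protein that binds FGF receptors, at -0.40 (0.00388, up to 0.0188), each in 3 of 3 libraries. *Ncam1* rose by 0.22 (adjusted P = 0.0177), in 3 of 3 libraries. That call was lost without control library 2 (0.0673), without *Fzd3* mutant library 1 (0.0709) and with limma's eBayes without the trend (0.0507), and its adjusted P was at least 0.00778. The count of higher genes was 2 without control library 1 or 2 and 1 without *Fzd3* mutant library 1, and the count of lower genes was 5 without control library 3. The list summed to 1440, 1505 and 1440 CPM for control, 1573, 1493 and 1542 for *Fzd3* mutant and 1515, 1477 and 1435 for *Celsr3* mutant libraries.

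Of the adaptors and RAS-ERK cascade genes 23 of 24 were measured. In *Fzd3* mutants 3 were higher and 3 lower, where 29.8% of all genes passed the threshold, with a list median of -0.02 (-0.02 to 0.04) and summed levels of 2131, 2128 and 2116 CPM for control, 2122, 2112 and 2144 for *Fzd3* mutant and 2116, 2149 and 2094 for *Celsr3* mutant libraries. *Gab1*, a docking protein below receptor tyrosine kinases, fell by 0.38 (limma adjusted P = 0.000740, up to 0.00387 over the alternative fits), and *Rps6ka2*, a kinase that ERK activates, fell by 0.27 (0.00135, up to 0.00791), in 3 of 3 libraries each. *Rps6ka1*, a kinase of the same family, rose by 0.36 (limma adjusted P = 0.0374), a call lost with only the 2 genotypes in the fit (0.0547), with a block for replicate number (0.0506), without control library 1 (0.0724), without control library 2 (0.0947), without control library 3 (0.0747), without *Fzd3* mutant library 1 (0.0747), without *Fzd3* mutant library 3 (0.116) and without *Celsr3* mutant library 2 (0.0510), over a range of 0.0202 to 0.116. The count of higher genes moved to 0 without control library 2 and to 1 without control library 3, *Fzd3* mutant library 1, *Fzd3* mutant library 2 or *Celsr3* mutant library 2.

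Of the other negative regulators of the cascade 16 of 18 were measured, with *Rasa1*, which inactivates RAS, the most abundant at 193 CPM. In *Fzd3* mutants 2 were higher and 2 lower, with a list median of -0.05 (-0.07 to -0.01). *Dusp7*, a phosphatase of ERK, rose by 0.37 (limma adjusted P = 0.00531, up to 0.0242 over the alternative fits), and *Dusp16*, a phosphatase that acts on JNK and p38, fell by 0.46 (0.00265, up to 0.0143), in 3 of 3 libraries each. *Cblb*, a ubiquitin ligase, fell by 0.29 (adjusted P = 0.0154), in 3 of 3 libraries. That call was lost without control library 1 (0.0594), control library 2 (0.0594) or *Fzd3* mutant library 2 (0.0631), over a range of 0.000590 to 0.0631. Without control library 3 the counts were 4 higher and 4 lower, and without control library 2 or *Fzd3* mutant library 2 they were 2 higher and 1 lower. The list summed to 1115, 1173 and 1094 CPM for control, 1122, 1057 and 1145 for *Fzd3* mutant and 1128, 1165 and 1136 for *Celsr3* mutant libraries.

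Immediate early genes, which ERK and other signals switch on rapidly, were measured for 9 of 15, with *Jun* the most abundant at 51.6 CPM. In *Fzd3* mutants 2 were higher and 2 lower, with a list median of 0.11 (0.02 to 0.16). Values of *Egr1* were 1.54, 1.41 and 1.505 CPM (control), 4.76, 4.95 and 2.596 CPM (*Fzd3* mutant) and 1.85, 1.67 and 1.79 CPM (*Celsr3* mutant). *Egr1*, which encodes a zinc finger factor, rose by 1.17 on the log2 scale in *Fzd3* mutants (limma adjusted P = 0.00136, up to 0.00908 over the alternative fits), where library 3 was the lowest and still above every control. *Fosl2* rose by 0.56 (0.0116, up to 0.0394) and *Ier2* fell by 0.55 (0.00297, up to 0.0153), in 3 of 3 libraries each. Leaving out control library 1, 2 or 3, *Fzd3* mutant library 1, 2 or 3, or *Celsr3* mutant library 2 left 1 lower gene. The list summed to 111, 113 and 99.5 CPM for control, 136, 134 and 121 for *Fzd3* mutant and 118, 142 and 129.7 for *Celsr3* mutant libraries. *Jun* had 43.4, 45.2 and 39.7 CPM in controls and 55.4, 66.5 and 61.2 CPM in *Celsr3* mutants, with no overlap. Its log2 difference of 0.51 did not pass the threshold (limma adjusted P = 0.0545). It passed without *Fzd3* mutant library 3 (0.0125), without *Celsr3* mutant library 1 (0.0423), with only these 2 genotypes in the fit (0.0364) and with libraries rescaled to the same total (0.0481), over a range of 0.0125 to 0.280.

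Across these pathway lists limma called 0 genes between *Celsr3* mutants and controls, against 0.307% of all 14670 genes past the same threshold. At an unadjusted p under 0.05 it called 8 of 73 (11%), against 5.45% of all genes. The list medians in *Celsr3* mutants were 0.04 (-0.02 to 0.14) for ligands, -0.07 (-0.10 to -0.03) for intracellular factors, 0.01 (0.00 to 0.07) for co-receptors, -0.01 (-0.03 to 0.00) for adaptors and cascade, 0.01 (-0.03 to 0.03) for negative regulators and 0.10 (0.04 to 0.16) for immediate early genes. No library was at 0 for any gene measured on the lists.

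Markers of cell types of the cortex were counted in the same way, and their part in the results for the 10 genes was not tested. In *Fzd3* mutants limma called 38 of the 85 measured genes of these lists (44.7%), against 29.8% of all genes (15% higher and 14.8% lower). At an unadjusted p under 0.05 it called 48 (56.5%), against 41.4% of all genes. Of the apical progenitor (radial glia) markers 10 of 10 were measured, 8 were lower in *Fzd3* mutants and 0 higher, with a median of -0.53 (-0.63 to -0.44). Their summed level was 1451, 1511 and 1463 CPM for control, 1109, 1173 and 1060 CPM for *Fzd3* mutant and 1317, 1355 and 1442 CPM for *Celsr3* mutant libraries, with *Fabp7* the most abundant at 432 CPM. *Pax6* fell by 0.70, *Nes* fell by 0.67 and *Hes5* fell by 0.66 on the log2 scale. Intermediate progenitor markers, 6 of 7 measured, were lower for 6 and higher for 0, with a median of -0.71 (-0.79 to -0.65) and sums of 412, 438 and 363 CPM for control, 232, 253 and 288 CPM for *Fzd3* mutant and 399.7, 456 and 464 CPM for *Celsr3* mutant libraries. *Eomes*, the most abundant at 160.1 CPM, fell by 0.67, *Neurog1* fell by 1.49, *Neurog2* fell by 0.86 and *Btg2* fell by 0.76. *Neurog1* was at 2.601, 3.45 and 1.76 CPM in controls and 0.395, 0.475 and 0.935 CPM in *Fzd3* mutants, and at these low levels its log2 difference lay between -1.97 and -0.81 over the alternative fits, which include other pseudocounts.

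Deep layer neuron markers, 8 of 8 measured, held 4 lower genes and 1 higher in *Fzd3* mutants, with a median of -0.12 (-0.17 to -0.09) and the highest level in *Sox5* (321 CPM). They summed to 1390, 1457 and 1223 CPM for control, 1126, 1091 and 1163 for *Fzd3* mutant and 1302, 1304 and 1303 for *Celsr3* mutant libraries. *Sox5* fell by 0.52, *Bcl11b* fell by 0.46 and *Fezf2* fell by 0.44. The count of higher genes was 2 without control library 3 or *Fzd3* mutant library 3. Upper layer markers, 6 of 6 measured, held 2 higher genes, among them *Mef2c* (0.70), and 0 lower, with a median of 0.12 (0.08 to 0.16) and sums of 1696, 1754 and 1613 CPM (control), 2289, 2213 and 2227 CPM (*Fzd3* mutant) and 1901, 1872 and 1764 CPM (*Celsr3* mutant). Pan-neuronal markers, 6 of 7 measured, held 1 higher and 2 lower genes, with a median of 0.02 (-0.01 to 0.04), *Dcx* the most abundant, and sums of 5705, 5623 and 5507 CPM (control), 5736, 5549 and 5758 CPM (*Fzd3* mutant) and 5776, 5743 and 5487 CPM (*Celsr3* mutant). Without control library 1 or 2 or *Fzd3* mutant library 1 they held 0 higher and 1 lower, without *Fzd3* mutant library 2 they held 0 higher and 2 lower, and without *Fzd3* mutant library 3 or *Celsr3* mutant library 2 they held 1 of each. *Neurod6* fell by 0.22. *Stmn2* rose by 0.26 (limma adjusted P = 0.0276), a call lost with eBayes without the trend (0.0662), without control library 1 (0.0520), without control library 2 (0.0922), without *Fzd3* mutant library 1 (0.0911) and without *Fzd3* mutant library 2 (0.0911), over a range of 0.00969 to 0.0922. *Neurod2* fell by 0.14 (limma adjusted P = 0.0361), a call lost with libraries rescaled to the same total (0.0503), with only the 2 genotypes in the fit (0.0624), with eBayes without the trend (0.0861), without control library 1 (0.0786), without control library 2 (0.133), without *Fzd3* mutant library 1 (0.105), without *Fzd3* mutant library 3 (0.0991) and without *Celsr3* mutant library 2 (0.0531), over a range of 0.0164 to 0.133. Interneuron and ventral telencephalon markers, 7 of 9 measured, held 0 called genes by limma (1 higher without *Fzd3* mutant library 3), with a median of -0.01 (-0.05 to 0.04), *Dlx1* the most abundant at 83.4 CPM, and sums of 223, 225 and 247 CPM (control), 266, 248 and 211 CPM (*Fzd3* mutant) and 225, 193 and 179.6 CPM (*Celsr3* mutant).

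Of the oligodendrocyte precursor markers 5 of 5 were measured, 3 were higher in *Fzd3* mutants and 0 lower, with a median of 0.73 (0.56 to 1.01), and sums of 29.4, 27.6 and 39.1 CPM (control), 71.2, 62.6 and 38.0 CPM (*Fzd3* mutant) and 36.9, 26.9 and 32.2 CPM (*Celsr3* mutant). *Olig1* rose by 1.08. *Olig2* rose by 0.98 (limma adjusted P = 0.0309), a call lost with eBayes without the trend (0.0632), without control library 1 (0.0973), without control library 2 (0.0869), without *Fzd3* mutant library 1 (0.122) and without *Fzd3* mutant library 2 (0.116), over a range of 0.00326 to 0.122. *Pdgfra*, the most abundant at 19.7 CPM, rose by 0.73 (limma adjusted P = 0.0399), a call lost with eBayes without the trend (0.0814), without control library 1 (0.0895), without control library 2 (0.142), without *Fzd3* mutant library 1 (0.155) and without *Fzd3* mutant library 2 (0.130), over a range of 0.00446 to 0.155. The count was 1 without control library 1 or 2 or *Fzd3* mutant library 1 or 2. Endothelial markers, 7 of 7 measured, held 3 higher genes and 0 lower, with a median of 0.45 (0.38 to 0.53) and sums of 102, 104 and 107 CPM (control), 154, 145 and 135 CPM (*Fzd3* mutant) and 112, 97.9 and 146 CPM (*Celsr3* mutant). *Kdr*, the most abundant of them at 38.3 CPM, rose by 0.58, *Flt1* rose by 0.85 and *Cldn5* rose by 0.53, and the count was 5 without *Celsr3* mutant library 4. Pericyte markers, 5 of 5 measured, held 1 higher gene and 0 lower, with a median of 0.23 (0.22 to 0.34), *Rgs5* the most abundant at 34.4 CPM, and sums of 81.8, 80.2 and 82.0 CPM (control), 99.5, 99.0 and 90.0 CPM (*Fzd3* mutant) and 88.0, 81.2 and 96.9 CPM (*Celsr3* mutant). *Abcc9* rose by 0.22 (limma adjusted P = 0.0160), a call lost without control library 2 (0.0642), over a range of 0.0127 to 0.0642. Their count was 3 without *Fzd3* mutant library 3 and 0 without control library 2. Microglia markers, 8 of 8 measured, held 3 higher genes and 0 lower, with a median of 0.45 (0.36 to 0.52), *Csf1r* (0.63) the most abundant at 16.8 CPM, and sums of 36.8, 43.5 and 41.4 CPM (control), 65.0, 60.55 and 45.4 CPM (*Fzd3* mutant) and 40.9, 44.2 and 52.4 CPM (*Celsr3* mutant). *C1qc* rose by 0.74 (limma adjusted P = 0.0197), a call lost without control library 1 (0.0766), without *Fzd3* mutant library 1 (0.0694) and without *Fzd3* mutant library 2 (0.0597), over a range of 0.00864 to 0.0766. *C1qa* rose by 0.46 (limma adjusted P = 0.0274), a call lost without control library 1 (0.0548), without control library 2 (0.0942), without *Fzd3* mutant library 1 (0.0924) and without *Fzd3* mutant library 3 (0.0771), over a range of 0.0159 to 0.0942. The microglia count was 1 without *Fzd3* mutant library 1 and 5 without *Fzd3* mutant library 3.

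Meninges and fibroblast markers, 5 of 7 measured, held 0 genes called by limma in *Fzd3* mutants, with a median of 0.15 (0.05 to 0.23) and *Col3a1* the most abundant at 13.8 CPM. *Celsr3* mutant library 4 stood out, as the sums were 12.2, 16.2 and 10.5 CPM (control), 21.0, 19.5 and 14.7 CPM (*Fzd3* mutant) and 15.2, 15.3 and 175 CPM (*Celsr3* mutant libraries 1, 2 and 4). *Col3a1* alone was at 87.6 CPM there, and without that library 2 of the 5 were higher in *Fzd3* mutants. The same library held the highest *Dusp6* and *Spry1* values of the *Celsr3* mutants. Without it the *Dusp6* difference from controls was 0.20, not past the threshold, as with all libraries. Erythroid markers, 7 of 9 measured, held 1 lower gene and 0 higher, with a median of 0.11 (0.00 to 0.35), *Hba-a1* the most abundant at 643 CPM and sums of 1766, 1918 and 2040 CPM (control), 2286, 2444 and 1570 CPM (*Fzd3* mutant) and 2417, 1585 and 2538 CPM (*Celsr3* mutant). Without control library 1 or 2 or *Fzd3* mutant library 1 or 2 they held 0 of either, and without *Fzd3* mutant library 3 they held 1 higher and 0 lower. *Hbb-y* fell by 1.05 (limma adjusted P = 0.0331), a call lost with a pseudocount of 2 CPM (0.0545), with eBayes without the trend (0.0553), without control library 1 (0.0667), without control library 2 (0.127), without *Fzd3* mutant library 1 (0.0772), without *Fzd3* mutant library 2 (0.0521) and without *Fzd3* mutant library 3 (0.0893), over a range of 0.0167 to 0.127. Its log2 difference lay between -1.69 and -0.46 over these fits. Of 6 choroid plexus and hem markers 1 was measured, *Wnt2b*, at 1.06, 0.870 and 0.878 CPM for control, 1.49, 0.821 and 1.18 for *Fzd3* mutant and 0.952, 1.02 and 1.08 for *Celsr3* mutant libraries, with a difference of 0.19 in *Fzd3* mutants that did not pass. Rostral and caudal patterning markers, 5 of 8 measured, held 3 lower genes and 0 higher, with a median of -0.23 (-0.28 to -0.20), *Nr2f1* the most abundant at 184 CPM and sums of 419.5, 460.3 and 449 CPM (control), 396, 375 and 359 CPM (*Fzd3* mutant) and 424, 461 and 448 CPM (*Celsr3* mutant). *Emx2* fell by 0.31 (limma adjusted P = 0.0282), a call lost without control library 2 (0.106), without *Fzd3* mutant library 1 (0.111) and without *Fzd3* mutant library 2 (0.0882), over a range of 0.00741 to 0.111. *Nr2f1* fell by 0.23 (limma adjusted P = 0.0209), a call lost with a block for replicate number (0.0506), with eBayes without the trend (0.0554), without control library 2 (0.0748), without control library 3 (0.0602), without *Fzd3* mutant library 2 (0.0509) and without *Fzd3* mutant library 3 (0.0617), over a range of 0.0121 to 0.0748. *Lhx2* fell by 0.22 (limma adjusted P = 0.0247), a call lost with eBayes without the trend (0.0621), without control library 1 (0.0531), without control library 2 (0.0933), without *Fzd3* mutant library 1 (0.0578), without *Fzd3* mutant library 2 (0.0543) and without *Fzd3* mutant library 3 (0.0643), over a range of 0.0117 to 0.0933. The patterning count was 0 without control library 2 or *Fzd3* mutant library 2, 1 without *Fzd3* mutant library 1 or 3, and 2 without control library 1 or 3. In *Celsr3* mutants limma called 0 genes of these cell type lists, against 0.307% of all genes. At an unadjusted p under 0.05 it called 15 of 85 (17.6%), against 5.45% of all genes. Their medians there included -0.08 (-0.16 to -0.02) for apical progenitors, 0.09 (0.00 to 0.18) for intermediate progenitors, -0.05 (-0.11 to -0.02) for deep layer neurons, 0.14 (0.07 to 0.18) for upper layer neurons, -0.22 (-0.30 to -0.15) for interneurons and 1.32 (0.32 to 1.89) for meninges. The last was 0.32 without *Celsr3* mutant library 4.

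**Figure D5:**
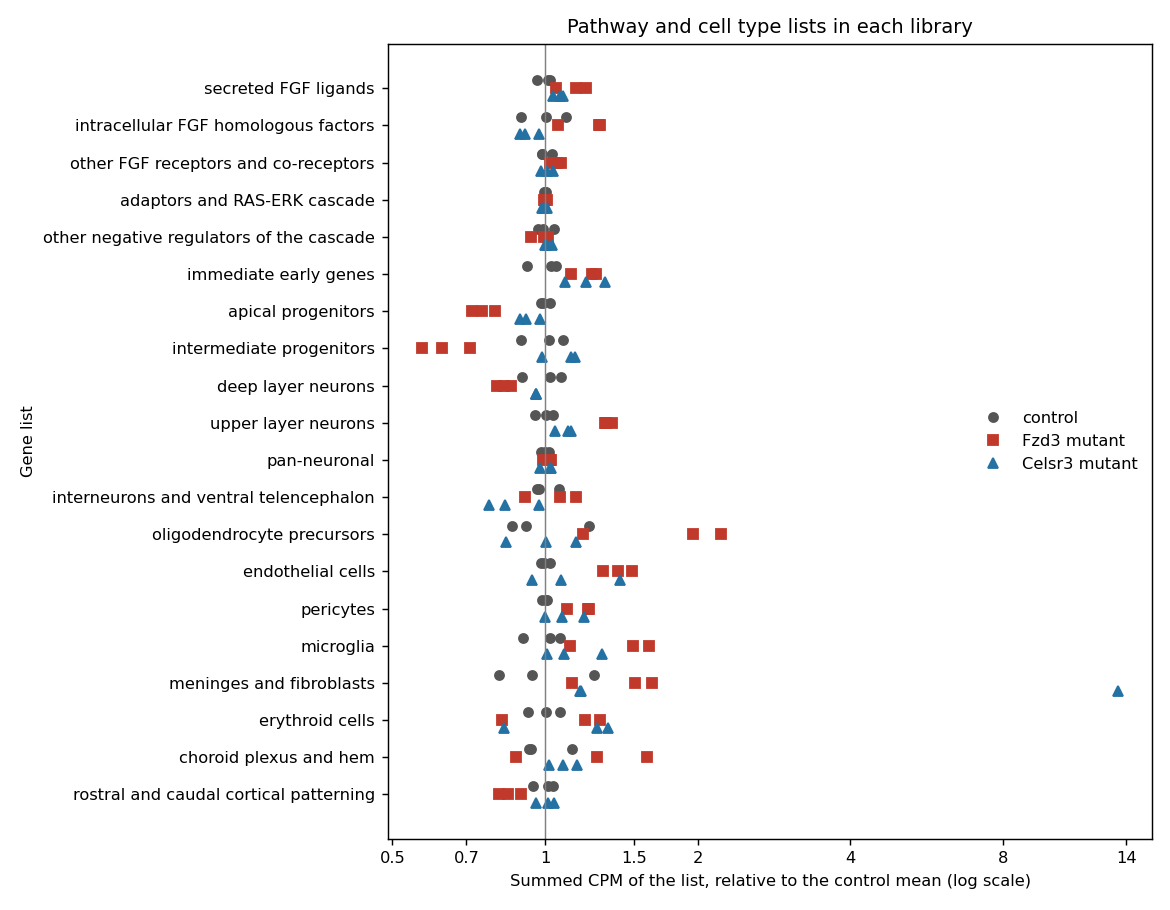
Summed CPM of each pathway and cell type list, relative to the control mean (horizontal axis, log scale), with 1 point per library. In the Fzd3 mutants the apical and intermediate progenitor sums average 0.755 and 0.637 of the control mean, and the meninges sum lies at 13.5 times the control mean in Celsr3 mutant library 4.

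For the 3 of the 10 genes with the largest SD over the 9 libraries, the genes with the most similar pattern were found by the root mean square difference of centred log2 values over 9 libraries. *Spry4* was nearest to *Lmo4* (0.0720), *Fam81a* (0.0871) and *Rapgef4* (0.122) among 11585 candidates with a mean of at least 5 CPM. Values of *Lmo4* were 65.4, 52.0 and 72.0 CPM (control), 105, 117 and 100.3 CPM (*Fzd3* mutant) and 64.2, 55.2 and 53.3 CPM (*Celsr3* mutant). As for *Spry4*, control library 2 was the lowest control and *Fzd3* mutant library 2 the highest of the 9. *Etv4* was nearest to *Etv1* (0.199), *Pdgfb* (0.200) and *Slc9a7* (0.201), at a larger distance. *Fgfr3* was nearest to *Hes1* (0.0676), *Nrarp* (0.0718) and *Adamts17* (0.0737) among 11584 candidates. Values of *Hes1* were 8.69, 11.1 and 7.93 CPM (control), 5.67, 6.80 and 5.69 CPM (*Fzd3* mutant) and 7.73, 8.44 and 10.5 CPM (*Celsr3* mutant). As for *Fgfr3*, *Fzd3* mutant libraries were the 3 lowest of the 9. The genes named here were picked for likeness over these same libraries, so a shared pattern follows from the choice.

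Some of the 10 genes overlap with other annotated genes, and the use of strand in counting is not stated, so reads from the opposite strand may not be told apart. *Fgfr1* overlaps on the opposite strand with *Gm16159*, which was at 2.93 CPM over all libraries with a log2 difference of -0.24 in *Fzd3* mutants. *Fgfr3* overlaps with G630022F23Rik and *Spry1* with Gm42922 on the opposite strand. In the GENCODE annotation used for the lengths, *Fgfr2* reaches to 133123350, beyond the RefSeq end given above, and there overlaps with *Ctbp2* on the same strand. The table does not list these 3 other genes, and the annotation it was counted on is not given here, so the *Fgfr2* CPM may include reads of the longer locus, and its exon length of 10.33 kb is that of the longer locus.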

How the data were processed

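The authors deposited CPM for 14670 genes in 9 libraries of E16.5 cortex, 3 per genotype. These are read counts scaled per library before deposit, by a size that is not given here. The submitters' notes name TopHat, TopHat2, Bowtie, Cufflinks 2.1.1, edgeR 2.12 and FastQC and the builds GRCm38 and GRCh37, without the role or order of each. From these values log2(CPM + 0.5) was fitted for all genes whose mean reached 0.5 CPM (a filter that removed no gene) by limma 3.58.1 (eBayes with trend) in R 4.3.3, with genotype as the factor, for each mutant against controls and between the mutants, at an adjusted P threshold of 0.05 over all genes. The fit was tested on simulated data. Tables and plots used Python 3.11.15, numpy 2.4.6, pandas 2.3.3 and matplotlib 3.10.9, and exon lengths came from GENCODE M21.

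The members and the gene lists were chosen with earlier results of these data known. From each list the text names the most abundant gene and up to 3 genes with the largest changes past the threshold for each mutant against controls, beside *Fzd3* and *Celsr3*, except for some genes that are not reported here. For the 3 members with the largest SD, it names the 3 genes (mean of at least 5 CPM) with the smallest root mean square difference of centred log2(CPM + 0.5). The lists were ligands, intracellular FGF homologous factors, co-receptors, adaptors and RAS-ERK cascade, negative regulators, immediate early genes, and markers of apical and intermediate progenitors, deep and upper layer neurons, pan-neuronal genes, interneurons, oligodendrocyte precursors, endothelial cells, pericytes, microglia, meninges, erythroid cells, choroid plexus and hem, and cortical patterning. Listed genes that the table lacks were not analysed. Alternatives were other pseudocounts, filters and library scalings, fits of 2 genotypes, a replicate block, eBayes without the trend and each library left out. The filter at a mean of at least 5 CPM left out genes below it, among them *Spry1*, *Spry4* and *Etv4*. For such genes the alternative fits are the others. A second length scale, the longest coding transcript, was added after the data were seen.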

Additional observations from a re-analysis of the deposited data

Results flagged for a closer look

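Among the 69 selected genes and members, 47 passed the test of the difference between the mutants by limma, 22 higher and 25 lower in *Fzd3* mutants, including 5 of the 10 members. Of all genes 29.6% passed, 15.3% higher and 14.3% lower. Most of the selected genes were picked for the largest changes between *Fzd3* mutants and controls, a comparison with the same *Fzd3* mutant libraries, so a higher share is expected among them. The values are log2 differences of *Fzd3* minus *Celsr3* mutants. The members among them were *Fgfr2* -0.27, *Fgfr3* -0.56, *Spry2* 0.46, *Spry4* 0.86, *Etv1* 0.57. Further higher genes, apart from a gene that is counted but not reported here, were *Fgf9* 0.89, *Fgf13* 0.38, *Fgf12* 0.82, *Fgf14* 0.46, *Ncam1* 0.24, *Rps6ka1* 0.40, *Dusp7* 0.48, *Egr1* 0.97, *Fosl2* 0.54, *Mef2c* 0.73, *Stmn2* 0.24, *Olig1* 1.23, *Olig2* 1.32, *Kdr* 0.43, *Flt1* 0.81, *Abcc9* 0.19, *C1qc* 0.61, *Celsr3* 0.92. The other lower genes were *Gpc4* -0.68, *Flrt3* -0.42, *Gab1* -0.34, *Rps6ka2* -0.37, *Dusp16* -0.48, *Cblb* -0.32, *Ier2* -0.66, *Pax6* -0.64, *Nes* -0.58, *Hes5* -0.60, *Eomes* -0.76, *Neurog1* -1.61, *Neurog2* -0.93, *Btg2* -0.82, *Sox5* -0.57, *Bcl11b* -0.24, *Fezf2* -0.34, *Neurod6* -0.28, *Neurod2* -0.26, *Hbb-y* -1.07, *Nr2f1* -0.27, *Emx2* -0.31, *Lhx2* -0.28. Of the 47 calls, 31 held in every alternative fit and 16 were lost in some. With limma adjusted P values, calls were lost for *Fgfr2* with the replicate block 0.108, without Fzd3 mutant library 2 0.0513, without Celsr3 mutant library 2 0.0526 (range 0.00383 to 0.108), and for *Fgf13* with the replicate block 0.114, eBayes without the trend 0.0510, without Fzd3 mutant library 1 0.0861, without Fzd3 mutant library 2 0.0698, without Celsr3 mutant library 4 0.0718 (range 0.00552 to 0.114), and for *Rps6ka1* with the replicate block 0.168, without Fzd3 mutant library 1 0.0552, without Fzd3 mutant library 3 0.0751, without Celsr3 mutant library 2 0.0741, without Celsr3 mutant library 4 0.0798 (range 0.0155 to 0.168). Further calls lost with fewer libraries were *Bcl11b* with the replicate block 0.0709, without Fzd3 mutant library 2 0.0554, without Celsr3 mutant library 2 0.0549 (range 0.00657 to 0.0709), and *Stmn2* with the replicate block 0.204, eBayes without the trend 0.0859, without control library 1 0.0538, without Fzd3 mutant library 1 0.118, without Fzd3 mutant library 2 0.120, without Celsr3 mutant library 2 0.113, without Celsr3 mutant library 4 0.131 (range 0.0123 to 0.204), and *Kdr* without Fzd3 mutant library 1 0.0831, without Fzd3 mutant library 2 0.0767, without Celsr3 mutant library 2 0.0637 (range 0.00551 to 0.0831). Calls also lost this way were *Abcc9* with the replicate block 0.184, without Fzd3 mutant library 1 0.0810, without Fzd3 mutant library 3 0.0882, without Celsr3 mutant library 1 0.0617, without Celsr3 mutant library 2 0.0890, without Celsr3 mutant library 4 0.0757 (range 0.0284 to 0.184), and *C1qc* pseudocount 0.1 CPM 0.0508, with the replicate block 0.0542, eBayes without the trend 0.0610, without control library 3 0.0505, without Fzd3 mutant library 1 0.127, without Fzd3 mutant library 2 0.111, without Fzd3 mutant library 3 0.0532, without Celsr3 mutant library 1 0.146 (range 0.0318 to 0.146), and *Hbb-y* with the replicate block 0.234, eBayes without the trend 0.0514, without Fzd3 mutant library 1 0.0729, without Fzd3 mutant library 3 0.0833, without Celsr3 mutant library 1 0.0800, without Celsr3 mutant library 4 0.115 (range 0.0120 to 0.234). The last of these were *Emx2* with the replicate block 0.0777, without Fzd3 mutant library 1 0.111, without Fzd3 mutant library 2 0.0896, without Celsr3 mutant library 2 0.0996, without Celsr3 mutant library 4 0.0832 (range 0.00756 to 0.111). Calls lost without leaving out a library were *Etv1* with the replicate block 0.0639 (range 0.00104 to 0.0639), *Fgf9* with the replicate block 0.0598 (range 0.00581 to 0.0598), *Ncam1* with the replicate block 0.0715 (range 0.00286 to 0.0715), *Flrt3* with the replicate block 0.0527 (range 0.000687 to 0.0527), *Cblb* with the replicate block 0.101 (range 0.000981 to 0.101), *Nr2f1* with the replicate block 0.0981 (range 0.00776 to 0.0981).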

How the results depend on the processing

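In every alternative fit that included the gene, the side of the threshold and the sign were kept by 5 of 10 members between *Fzd3* mutants and controls, 6 of 10 between *Celsr3* mutants and controls, and 7 of 10 between the mutants, and by 38, 29 and 35 of the 59 other selected genes. Among those reported, genes that passed only in some alternative fits, with the range of adjusted P, were *Fgf13* (0.0318 to 0.431), *Fzd3* (0.0457 to 0.633) and *Jun* (0.0103 to 0.224) in *Fzd3* mutants, *Jun* (0.0125 to 0.280) in *Celsr3* mutants, and *Cldn5* (0.0291 to 0.755), *Col3a1* (0.0279 to 0.187), *Csf1r* (0.0213 to 0.440), *Dlx1* (0.0351 to 0.504), *Jun* (0.0308 to 0.199) and *Pdgfra* (0.0114 to 0.326) between the mutants. With replicate number as block, 29 genes passed in *Celsr3* mutants (45 without it), 3629 in *Fzd3* mutants (4366) and 2101 between the mutants (4346), where 3 members passed in place of 5. The number 4 occurs only in the *Celsr3* mutants. Library 4 therefore had a block of its own in that fit and did not inform the differences. Between genotypes, deviations from the group means correlated at -0.199 to 0.192 for libraries with the same number. For libraries with different numbers the correlations ran from -0.163 to 0.188. With 3 libraries per genotype, these values cannot tell whether the numbers pair libraries. With each library left out, the genes past the threshold ranged over 2958 to 4312 for *Fzd3* mutants, 39 to 53 for *Celsr3* mutants and 2971 to 4471 between the mutants, and the members over 4 to 7, 0 to 0 and 4 to 6. The difference of *Etv4* in *Fzd3* mutants reversed to -0.11 without control library 1 and ranged to 0.32. In *Celsr3* mutants these differences reversed, none past the threshold: *Fgfr2* at 0.0127 without control library 2 and 0.0265 without *Celsr3* mutant library 1 (lowest -0.10), *Fgfr3* at -0.14 with the block, -0.0188 without control library 1, -0.0898 without control library 3, -0.00915 without *Celsr3* mutant library 2 and -0.0726 without *Celsr3* mutant library 4 (highest 0.14), *Spry1* at -0.0251 with the block, and *Spry4* at 0.0102 without control library 3 (lowest -0.30). The cause was not tested. The fit without a filter gave the same values, since the filter removed no gene. The planned edgeR fit was not run, since its reads would have been inferred from CPM steps. Each library held only 23 to 66 low values, taken here as too few to use such reads in a count test. The order of the 10 genes by level depended on the length scale, with the Sprouty and *Etv* orders unchanged under the length scales tried.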
